A study of Mus musculus with 3 samples.

Results

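The Ly49 receptors are C-type lectin-like proteins that mouse natural killer (NK) cells carry on their surface, and each is encoded by a Klra gene of the NK gene complex. The members described here are Klra1, Klra3, Klra4, Klra5, Klra6, Klra7, Klra8, Klra9 and Klra17. These 9 genes were chosen by symbol, out of 14 Klra genes and 55401 genes in all listed in the count matrices. The cells were live CD45+ leukocytes, sorted with a CD45.2 antibody from digested subcutaneous tumours of YUMM1.7, a mouse melanoma line, and were profiled by PIP-seq, a single-cell RNA method that captures transcripts in droplets formed with template particles. There were 3 libraries, 1 from mice aged 4 months, 1 from mice aged 12 months and 1 from mice aged 20 months, each from 7 mice that had received 500000 tumour cells 18 days earlier. No mouse genotype, strain or treatment other than the tumour is named in the labels, the mice of an age cannot be told apart in the matrices, and age is therefore compared over 1 library against 1 library with no replicate check and no p-value. All intervals below are 95% intervals that cover counting error only and say nothing of the spread between mice.

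The family holds inhibitory and activating receptors. Most members bind class I molecules of the major histocompatibility complex and carry in their cytoplasmic tail a tyrosine motif (ITIM) through which phosphatases such as SHP-1, the product of Ptpn6, damp NK cell activation. Klra4 (Ly49D) and Klra8 (Ly49H) lack that motif and signal through the adaptors DAP12 (Tyrobp) and DAP10 (Hcst), and Ly49H is known for recognising a glycoprotein of mouse cytomegalovirus. Individual NK cells are known to express only some of the genes, in overlapping combinations, and Klra17 (Ly49Q) is known from plasmacytoid dendritic and myeloid cells rather than from NK cells.

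The difference between both kinds of receptor can be read near the start of the coding sequence. The stretches below were taken from the GRCm38 genome with the GENCODE M21 transcripts and cover 30 coding bases, read 5′ to 3′ on the coding strand, with codon 8 counted from the start codon in capitals. They are shown because this codon decides whether the ITIM tyrosine is present. Klra gene content and sequence differ between mouse strains, and GRCm38 represents C57BL/6J. The strain of these mice is not named, so the sequences, the gene list and the assignment of counts to members apply as far as the mice carry that haplotype.
Klra1: caggaggtcactTATtcaatggtgagattt
Klra3: ccagaggtcactTACtcaactgtgagactt
Klra4: caggaagacactTTCtcagctgtgagattc
Klra5: ccagaggtcactTACtcaactgtgagactt
Klra6: ccggaggtcactTACtcaactgtgagactt
Klra7: caggaggtcactTACtcaactgtgagattt
Klra8: caggaggtcactTTCccaactatgagattc
Klra9: ccggaggtcactTACtcaactgtgagactt
Klra17: caggaggtcactTATtcaactgtgagattt

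Codon 8 was a tyrosine codon in 7 members and a phenylalanine codon in Klra4 and Klra8. Klra3 and Klra5 had the same 30 bases, and so did Klra6 and Klra9. The Klra7 stretch lies in exon 1 of 8 (chr6:130231579-130231608, minus strand) and the Klra8 stretch in exon 2 of 8 (chr6:130128122-130128151, minus strand).

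All 9 genes lie on the minus strand of chromosome 6, between 129831154 at the end of Klra17 and 130386874 at the start of Klra1. Coding sequences of the members were alike: the most similar pair was Klra3 and Klra9, identical at 95.9% of 798 aligned bases, and the least similar was Klra3 and Klra4 at 76.8% of 786. The libraries were made with a 3′ kit, so the last 500 bases of 1 annotated transcript per gene were compared in windows of 100 bases. No window was shared between any pair of the 9 members. Klra3 shared 5.49% of its windows with Klra10, Klra7 5.74% with the pseudogene Klra13-ps and Klra9 11.2% with the pseudogene Klra11-ps, so reads from those stretches cannot be told apart between the genes. Klra17 is overlapped on the other strand by Gm44248 and Gm17631, and it is not given in the sources used here whether counting used the strand.

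The libraries held 14393 to 14684 cells with 110371225 to 127850782 counts in all, at medians of 6789 to 7411 counts per cell. After removal of likely doublets 13528 to 13803 cells per library were kept, and libraries shared at most 4 cell barcodes. Clusters were made without any Klra gene and named from marker genes. The NK-like class, with Ncr1 and Klrb1c among its leading genes, held 2315, 2128 and 1628 cells at 4, 12 and 20 months, which was 17.2%, 15.5% and 11.8% of the immune cells. The class was named from its 8 markers, so their levels are a description. All 8 were above 20 CPM (a gene's counts scaled to a common total for each class and library) in each library. T-like cells also had 8, 8 and 7 of them above 20 CPM at 4, 12 and 20 months. The summed level of the 8 was 7303, 6042 and 5237 CPM in NK-like cells and 1135, 828 and 643 CPM in T-like cells. Monocyte/macrophage-like cells numbered 5260, 4207 and 5105, and T-like cells 5004, 6580 and 6166.

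Of the 9 members 8 had their highest level in NK-like cells among 7 cell classes (NK-like, T-like, monocyte/macrophage-like, B-like and the plasmacytoid, type 2 and mature dendritic cell-like classes), and Klra17 was the exception. For Klra6 the intervals overlapped at 12 months, with 20.8 CPM (18.8 to 22.9) in NK-like and 20.5 CPM (19.3 to 21.8) in T-like cells. A group of 297 T-like cells within the NK-like clusters, not among the 7 classes, had Klra6 at 23.5 CPM, pooled over the libraries. Among all 11454 genes that reached 10 CPM in at least 1 of these classes, 11.3% were highest in NK-like cells. The order of the members in NK-like cells, pooled over the libraries, was Klra8 at 962 CPM, Klra4 at 761, Klra7 at 692, Klra3 at 375, Klra9 at 365, Klra1 at 174, Klra6 at 20.6, Klra5 at 18.5 and Klra17 at 4.4 CPM. These levels were not scaled by transcript length, since a 3′ kit reads one end of each transcript. The 3 leading genes made up 71.6% of the counts of the 9 members in these cells. The pseudogene Klra13-ps, not among the 9, was at 707 CPM in NK-like cells. Klra3 and Klra9, neighbours in this order, changed places between libraries, and Klra4 and Klra7 had overlapping intervals at 20 months. The steps from Klra8 to Klra4 and from Klra9 to Klra1 had the same sign in each library.

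**Figure D1:**
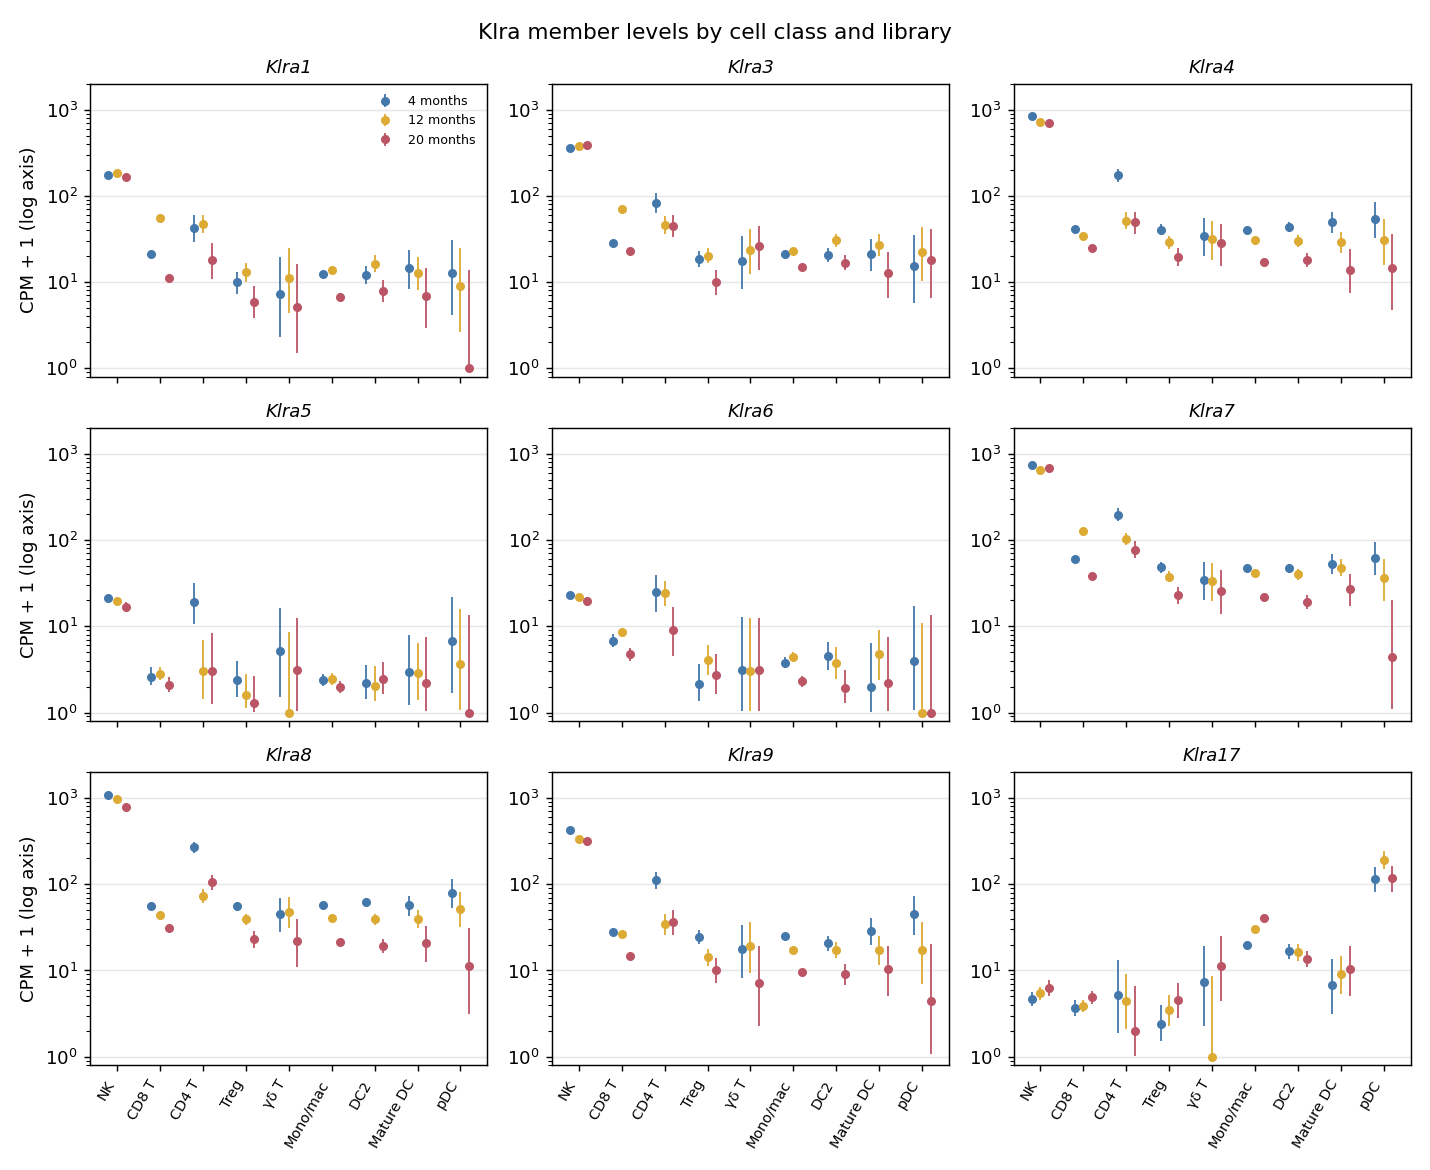
Level of each Klra member in 9 cell classes, as CPM + 1 on a log axis; points are the 3 libraries and bars are 95% Poisson intervals of the summed counts. For all members but Klra17 the NK-like points lie above those of the regulatory T-like, gamma-delta T-like, monocyte/macrophage-like and dendritic cell classes, and Klra17 is highest in plasmacytoid dendritic cell-like cells.

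In myeloid, regulatory T-like and gamma-delta T-like cells the same members were counted at a low level that was much alike between cell types. Klra8 was at 38.6 CPM in monocyte/macrophage-like cells, 39.4 in regulatory T-like cells, 37.4 in gamma-delta T-like cells, 38.8 in type 2 dendritic cell-like cells and 39.2 in mature dendritic cell-like cells. Klra4 lay between 28.2 and 43.4 CPM over 7 such classes (these 5, mast cell/basophil-like and stromal-like cells), and Klra7 between 30.5 and 45.7. B-like cells, not among these classes, were less even over the libraries (24, 26 and 22 cells). Their Klra4 was at 260, 31.3 and 6.18 CPM and their Klra8 at 184, 28.2 and 18.5 CPM. Plasmacytoid dendritic cell-like cells, also not among them, had Klra4 at 32.8 and Klra8 at 48.7 CPM, pooled. In monocyte/macrophage-like cells the counts of Klra4 and Klra8 per cell had a variance close to their mean (ratios of 1.01 and 1.01 at 4 months), which is what Poisson sampling gives. The monocyte/macrophage-like level is therefore set beside the others as the background. It was not the same in every library: Klra8 in monocyte/macrophage-like cells was at 57.1, 39.1 and 20.6 CPM at 4, 12 and 20 months, and Klra4 at 39.1, 30.1 and 16.3. NK-like cells exceeded this background 27.0-fold for Klra4, 25-fold for Klra8, 20.2-fold for Klra3, 17.6-fold for Klra1 and 14.8-fold for Klra5.

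Klra8, the activating receptor Ly49H, was at 1068, 981 and 777 CPM in NK-like cells at 4, 12 and 20 months. The oldest library was the lowest, by -0.46 on the log2 scale against 4 months (interval -0.49 to -0.42). Klra8 was at 1224, 1080 and 862 CPM in the sub-cluster marked by Gm24265 and Rnu2-10, and at 1083, 1058 and 801 CPM in the largest one, marked by Nr4a1. In the 168 cells marked by Gzmf and Gzmd it was at 596, 565 and 562 CPM with overlapping intervals. With the monocyte/macrophage-like level of each library subtracted, the difference at 20 months was -0.42.

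Klra4, the other activating member, was at 845, 722 and 692 CPM, which at 20 months was -0.29 against 4 months (-0.33 to -0.25). The inhibitory Klra9 (Ly49I) was at 427, 338 and 314 CPM, -0.44 at 20 months (-0.50 to -0.39). Both were lowest at 20 months and highest at 4 months. Klra7 (Ly49G), the most counted inhibitory member, was at 732, 653 and 689 CPM and so was lowest at 12 months. Klra3 (Ly49C) went the other way, at 360, 379 and 391 CPM, 0.12 on the log2 scale at 20 months (0.07 to 0.17). Klra1 (Ly49A) was at 175, 181 and 164 CPM, and its 12-month interval included no difference. At 20 months its log2 difference was -0.10 (-0.18 to -0.02).

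Of the members with low levels, Klra6 (Ly49F) was at 21.9, 20.8 and 18.4 CPM, and Klra5 (Ly49E) at 20.2, 18.5 and 15.9 CPM. Both had 12-month intervals that included no difference. At 20 months the log2 difference was -0.25 for Klra6 (-0.49 to -0.02) and -0.34 for Klra5 (-0.60 to -0.10). Klra17 in NK-like cells was at 3.69, 4.42 and 5.28 CPM, below its level in monocyte/macrophage-like cells in every library. Its log2 difference at 20 months was 0.52 (0.02 to 1.02).

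Summed over the 9 members the family was at 3653, 3297 and 3065 CPM in NK-like cells. That is a log2 difference of -0.15 at 12 months (-0.16 to -0.13) and -0.25 at 20 months (-0.27 to -0.24). None of the 7 members with a mean of at least 20 CPM differed by 1.5-fold or more at either age. Of all 5538 genes at that level, 1.77% were higher and 0.343% lower by that fold at 12 months, and 1.55% were higher and 0.307% lower at 20 months. The median log2 difference of the 7 members was -0.12 at 12 months and -0.25 at 20 months, beside -0.01 and -0.06 over all genes. Both comparisons share the 4-month library. Whether mice of one age differ by as much as these libraries do cannot be read from the data. The summed level of the 8 NK-like markers also differed, at 7303, 6042 and 5237 CPM, and its part in the lower family level was not tested. Gzma weighs heavily in that sum. In NK-like cells with Klra1, Klra3, Klra4, Klra7, Klra8 or Klra9 detected, Gzma was at 3902, 2914 and 2356 CPM and Ncr1 at 753, 724 and 657 CPM. Each marker was lower at 20 than at 4 months in these cells.

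**Figure D2:**
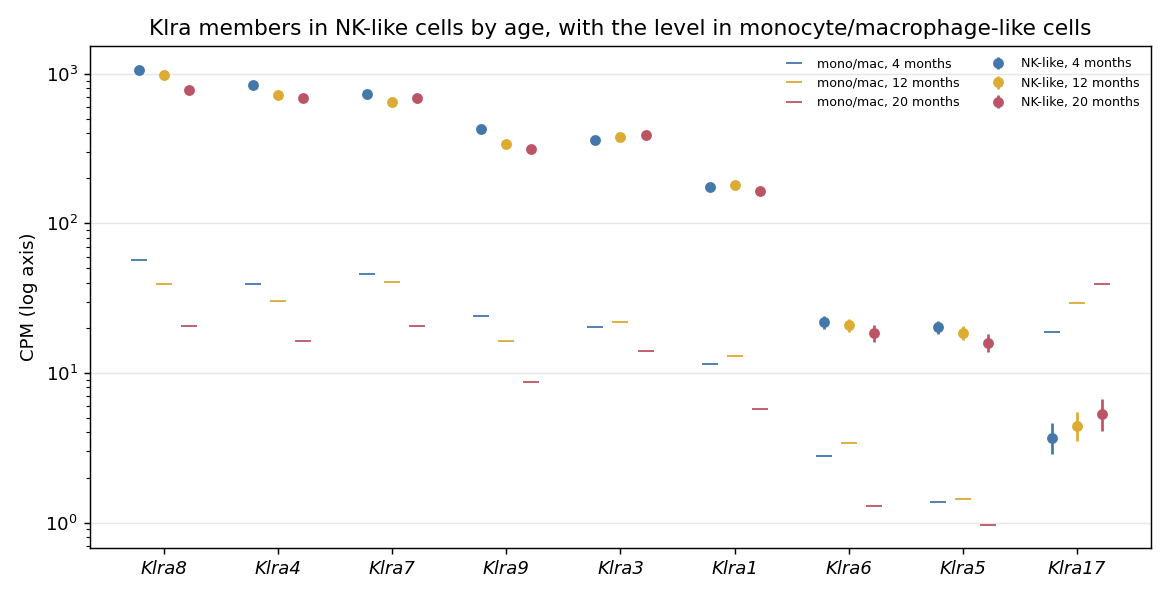
Levels of the 9 members in NK-like cells of the 3 libraries (points, with 95% Poisson intervals) and in monocyte/macrophage-like cells (dashes), in CPM on a log axis. Klra8, Klra4 and Klra9 step down from 4 to 20 months, Klra3 steps up from 360 to 391 CPM, and the dashes of Klra8, Klra4, Klra7 and Klra9 also step down. Of the 9 members only Klra17 lies below its dashes.

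Klra8 accounted for 29.2%, 29.7% and 25.3% of the counts of the 9 members in NK-like cells at 4, 12 and 20 months. Klra4 took 23.1%, 21.9% and 22.6%, and Klra7 20.0%, 19.8% and 22.5%. The share of Klra3 was 9.86%, 11.5% and 12.8%.

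The family was lower in dividing and in granzyme-marked NK-like cells. The summed Klra members were at 2494 CPM in the 582 dividing cells, marked by Pclaf and Stmn1, and at 2304 CPM in the 168 cells marked by Gzmf and Gzmd, against 3545 to 3629 CPM in the 3 largest sub-clusters. In the granzyme-marked cells Klra4 was at 328 CPM and Klra8 at 575, whereas in the Nr4a1-marked cells they were at 836 and 1011. Klra9 did not share that difference and was at 431 CPM in the granzyme-marked cells and 361 in the Nr4a1-marked ones. Klra5 was at 29.5 and 18.1 CPM in the same groups, but its values in the granzyme-marked cells were 18.3, 12.6 and 64.6 CPM over the 3 libraries and rest largely on the oldest one. These sub-clusters were defined on other genes of the same cells, so the values are a description.

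Other genes of the pathway were counted in the same NK-like cells. Of 14 Ly49 signalling genes 11 could be tested and 0 were past that fold in either direction at either age, and the same held for the 3 genes of class I ligands and their light chain. The median log2 difference of the signalling genes was -0.01 at 12 months and -0.10 at 20 months, and that of the ligand genes -0.05 and -0.09. Tyrobp, the DAP12 adaptor of Ly49D and Ly49H, was at 2782, 2573 and 2421 CPM and Hcst at 460, 457 and 469 CPM. Tyrobp is also a myeloid gene, at 2188 CPM in monocyte/macrophage-like cells. Ptpn6 was at 193, 183 and 154 CPM, which at 20 months is -0.32 on the log2 scale. H2-D1, a class I ligand gene, was at 4810, 4794 and 4316 CPM.

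Of 14 transcription factor genes tied to NK maturation or Ly49 expression 10 were tested and 0 passed the fold, with medians of -0.10 at 12 months and -0.08 at 20 months. Eomes, which helps to keep NK cells mature, was at 110, 100 and 103 CPM, and Tcf7, whose product TCF-1 is known to act at Ly49 genes, was at 54.3, 50.4 and 50.6 CPM. Of 10 NK maturation markers 8 were tested and 1 passed it, at 12 months: Ly6c2 was at 1129, 1702 and 1281 CPM, higher at 12 months by 0.59 on the log2 scale. The medians of that list were 0.14 and 0.06. Ly6c2 was at 4342 CPM in monocyte/macrophage-like cells and at 5167 CPM in CD8 T-like cells, and the part of RNA from those cells in its difference was not tested.

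Within NK-like cells each member was found in only some of the cells. To compare cells of unequal depth every cell was thinned to 3000 counts, which all cells reached. Klra8 was then detected, with at least 1 count, in 63.1%, 60.4% and 50.9% of NK-like cells at 4, 12 and 20 months, with an interval of 61.1% to 65.0% at 4 months and 48.5% to 53.4% at 20 months. Without thinning the shares were 74.2%, 70.8% and 59.3%. In monocyte/macrophage-like cells thinned in the same way Klra8 was detected in 16%, 11.6% and 5.47%. NK-like cells had medians of 7354, 7852 and 7026 counts per cell as deposited, and monocyte/macrophage-like cells 7673, 8674 and 7937. Both the NK-like share of Klra8 and its background share were highest in the youngest library.

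Detection of the other members followed their levels. Klra4 was detected in 57.3%, 52.9% and 50.2% of NK-like cells, Klra7 in 54.6%, 49.0% and 49.2%, and Klra9 in 48.5%, 41.2% and 39.3%. Klra3 was steady at 45.0%, 46.0% and 45.2%, and Klra1 at 18.6%, 20.5% and 17.0%. Klra6 was detected in 4.36%, 4.98% and 4.12% of cells and Klra5 in 2.76%, 2.68% and 2.33%. Klra17 was detected in 0.994%, 0.846% and 1.29% of NK-like cells, in 0.739%, 0.76% and 0.957% of T-like cells and in 3.33%, 5.35% and 7.78% of monocyte/macrophage-like cells. Over the libraries Klra17 was at 4.36 CPM (3.81 to 4.97) in NK-like and 3.08 CPM (2.78 to 3.4) in T-like cells.

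For Klra1, Klra3, Klra4, Klra7, Klra8 and Klra9 these shares were far below those that an even spread of the same counts would give. For the members with low levels the gap was smaller, with 4.36% against 6.6% expected for Klra6 and 0.994% against 1.24% for Klra17 at 4 months. If every NK-like cell of the 4-month library had held Klra8 at the mean level, Poisson sampling would have put it in 96.5% of the cells, not 63.1%. For Klra4 the expected share was 92.7% and for Klra7 89.7%. Ncr1 and Klre1, receptor genes outside the family and among the markers that named the class, lay nearer to their expected share. Ncr1, which encodes NKp46, was detected in 87.2% of cells with 90.9% expected, and Klre1 in 90.0% with 93% expected. The other markers are not compared here. The variance of the counts per cell divided by their mean was 5.09 for Klra8, 4.32 for Klra4, 3.96 for Klra7 and 4.05 for Klra1, against 1.30 for Ncr1 and 1.33 for Klre1. These members were thus strongly counted in some NK-like cells and absent or near background in others, in all 3 libraries.

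For Klra8 both the share of positive cells and the count in them were lowest at 20 months. Cells with Klra8 held on average 5.33, 5.10 and 4.75 counts of it per 3000, while the share of cells with it was 63.1%, 60.4% and 50.9%. For Klra9 the mean in positive cells was 2.85, 2.5 and 2.45 counts, and for Klra3 it was 2.46, 2.48 and 2.67.

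**Figure D3:**
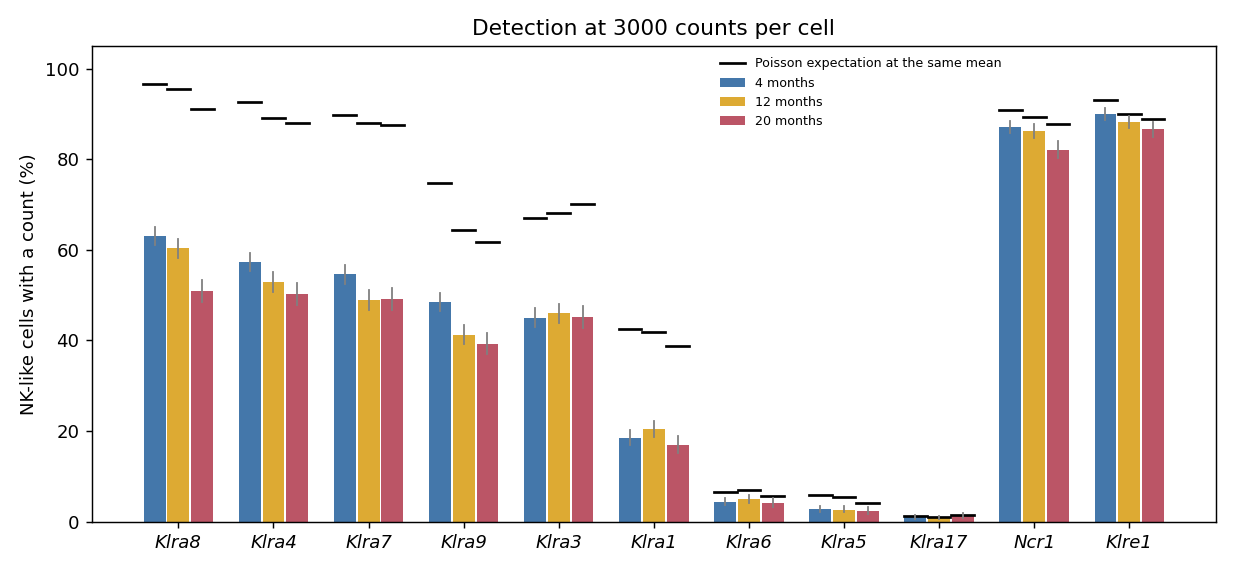
Share of NK-like cells with at least 1 count after thinning to 3000 counts per cell (bars by library, grey lines are 95% exact binomial intervals) and the share expected if the same mean were spread evenly over the cells (black lines). The bars of Klra8, Klra4, Klra7, Klra9, Klra3 and Klra1 end well below the black lines, whereas those of the comparison genes Ncr1 and Klre1 end close to them, for Ncr1 at 82.1% against 87.7% in the 20-month library.

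Co-detection was described in the same thinned NK-like cells. A cell held on average 2.95, 2.78 and 2.60 of the 9 members at 4, 12 and 20 months. At least 2 members were detected in 84.7%, 80.5% and 77.9% of cells. In monocyte/macrophage-like cells, counted in the same way, at least 2 were detected in 11.3%, 8.68% and 4.07%, so the background was lower at the older ages in the same order. With at least 2 counts required of each member, the shares were 68.9%, 63.7% and 60.2% in NK-like cells and 0.114%, 0.119% and 0.0784% in monocyte/macrophage-like cells. The most common number was 3, in 28.6%, 28.0% and 29.2% of cells, and none was detected in 4.84%, 6.25% and 7.49%. If the members had been detected independently of each other at their own shares, none would be expected in 1.52%, 2.21% and 3.17%. The number per cell spread wider than independence gives, with an SD over cells of 1.37, 1.40 and 1.37 where 1.21, 1.21 and 1.21 would be expected. Cells with 4 or more members and cells with none were thus both more frequent than independent detection gives. The part of residual doublets in these counts was not tested.

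The 6 members detected in over 10% of the cells (Klra1, Klra3, Klra4, Klra7, Klra8 and Klra9) allow 64 combinations of present and absent. All 64 were seen among the 6071 NK-like cells, both with at least 1 and with at least 2 counts required of each member. Among 14572 monocyte/macrophage-like cells 47 combinations were seen with at least 1 count and 12 with at least 2. Cells with none of the 6 made up 4.88%, 6.39% and 7.86% of the libraries, the most common combination at 12 and 20 months but not at 4 months. Klra4 with Klra7 and Klra8 was found in 6.44%, 5.50% and 5.34% of cells at 4, 12 and 20 months, where independence gives 4.55%, 3.95% and 3.47%. Klra3 with Klra4, Klra8 and Klra9 was found in 5.40%, 4.23% and 3.81% of cells, where independence gives 2.92%, 2.46% and 1.91%. The 10 most common combinations together held 39.6% of the cells.

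Pairs were compared as the share of cells with both genes divided by the product of their separate shares. This ratio cannot exceed the inverse of the larger share. Its size is therefore not comparable between pairs, ages or cell groups with unlike detection. Klra3 and Klra9 had ratios of 1.25, 1.28 and 1.33 in the 3 libraries. The lowest of their intervals, at 4 months, ran from 1.17 to 1.34. At 4 months 60.7% of the cells with Klra3 also had Klra9, against 38.6% of those without Klra3. These genes encode Ly49C and Ly49I and are the pair with the most similar coding sequence, and although their annotated 3′ ends share no 100-base window, misassigned reads between them were not tested.

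The activating pair Klra4 and Klra8 had ratios of 1.15, 1.19 and 1.23. Ratios above 1 were not particular to that pair, since Klra1 and Klra4 had 1.15 at 4 months and 1.23 at 20 months. Both genes were found together in 41.5%, 38.0% and 31.4% of NK-like cells. At 4 months 72.4% of cells with Klra4 had Klra8, against 50.5% of cells without Klra4. With at least 2 counts required of each gene, the pair of Klra4 and Klra8 had ratios of 1.29, 1.34 and 1.32. Under the same requirement Klra3 and Klra9 had 1.06, 1.32 and 1.14, and their intervals at 4 months (0.928 to 1.21) and 20 months (0.953 to 1.35) then included 1.

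Ratios below 1 were found for some inhibitory pairs. Klra1 and Klra3 had ratios of 0.827, 0.867 and 0.854 at 4, 12 and 20 months, and the 20-month interval of 0.704 to 1.03 included 1. Klra1 and Klra9 had 0.858, 0.941 and 0.735, with a 12-month interval of 0.809 to 1.09. For Klra3 and Klra7, at 0.934, 0.947 and 0.895, only the 20-month interval lay below 1. With at least 2 counts required, the ratio of Klra1 and Klra3 over all cells was 0.701 and that of Klra1 and Klra9 was 0.793. Without thinning these ratios were 0.912 and 0.894, and at 12 months 0 of 15 intervals lay below 1, with 0.955 as the lowest ratio. In thinned cells the ratio of Klra1 and Klra3 was 0.669 in the sub-cluster marked by Cxcl10, 0.888 in the one marked by Gm24265 and 0.936 in the one marked by Nr4a1, where its interval (0.807 to 1.08) included 1. Of the 15 pairs among the 6 members the intervals lay above 1 for 6 pairs at 4 months, 6 at 12 months and 5 at 20 months, and below 1 for 2, 1 and 2. No ratios were computed for pairs of other genes, so these counts are a description and cannot be called particular to the family.

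**Figure D4:**
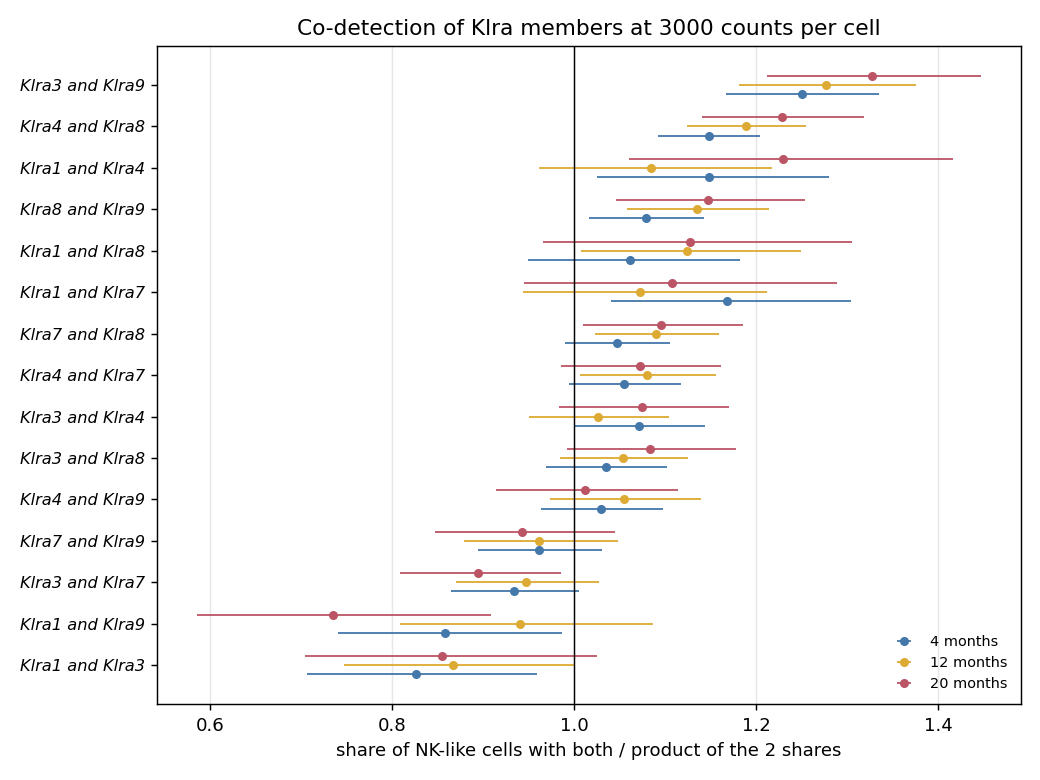
Share of NK-like cells with both members of a pair divided by the product of the 2 separate shares, for 15 pairs and 3 libraries, with 95% intervals from the exact binomial interval of the joint share; the vertical line marks 1. Klra3 with Klra9 and Klra4 with Klra8 lie right of the line in each library, and the points of Klra1 with Klra3 and of Klra1 with Klra9 lie left of it.

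The rare members Klra5 and Klra6 were found in the same cell 16 times among 6071 NK-like cells, 2.23 times the product of their shares (1.28 to 3.62). With 6, 8 and 2 cells in the 3 libraries, only the 12-month interval (1.22 to 5.54) lay above 1.

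NK-like cells in which none of the 6 members was detected numbered 113, 136 and 128, with median depths of 6770, 6827 and 6686 counts, against 7385, 7926 and 7059 in the other NK-like cells. They made up 5.40% to 11.9% of each NK-like sub-cluster. Genes were compared by fold where both groups reached 20 CPM, and of all 5342 such genes outside the family 1.22% were higher in the cells with none by 1.5-fold or more and 0.225% lower. Of 6 markers of type 1 innate lymphoid cells (ILC1, a tissue-resident relative of NK cells) 3 could be compared in this way, and 2 of these, Tnfsf10 and Gpr183, were higher by that fold. The list is not particular to ILC1 here. Its genes summed to 485, 503 and 523 CPM in T-like cells at 4, 12 and 20 months. In plasmacytoid dendritic cell-like cells the sum was 478, 578 and 624 CPM, against 149, 187 and 184 CPM in NK-like cells. Rora, a transcription factor of innate lymphoid cells, was at 40.4, 49.0 and 25.2 CPM in cells with none and at 14.1, 17.2 and 15.9 CPM in the others. Il7r, the interleukin 7 receptor chain, was at 25.8, 22.1 and 35.1 CPM against 8.72, 14.2 and 21.8. Both were higher in the cells with none in each library, as were Tnfsf10 and Gpr183. Il7r, Rora and Cd200r1 were below 20 CPM in the other cells and were not counted. Cd200r1 was at 22.5, 20.2 and 12.1 CPM against 3.60, 4.68 and 4.43.

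Of 8 NK-like markers 3 were lower in those cells by 1.5-fold or more, namely Eomes, Gzma and Klri2, and 0 were higher. Eomes was at 53.9, 53.8 and 52.7 CPM against 113, 103 and 107. Gzma, which encodes granzyme A, was at 1994, 1497 and 1059 CPM against 3902, 2914 and 2356. Ncr1 did not follow and was at 782 CPM against 718, pooled. Of the 7 tested T-like markers 0 passed the fold, and their summed level was higher in each library, at 1201, 1374 and 1089 CPM against 832, 1184 and 1019. Of 12 monocyte/macrophage-like markers 10 could be compared and 1, Ly6c2, passed the fold, at 1755, 3025 and 2330 CPM against 1098, 1626 and 1201. The summed level of the other 11 was lower in the cells with none in each library, at 1675, 1558 and 1775 CPM against 1815, 1755 and 1874. The part of T cell RNA in these differences was not tested. Itga1, which encodes CD49a, another ILC1 marker, was at 29.6 CPM in cells with none and at 30.9 in the others, pooled.

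T-like cells carried a different part of the family. In the T-like sub-cluster marked by Dapl1 and Ccr7, genes of resting T cells, Klra7, Klra1, Klra3 and Klra6 stood further above background than Klra4 and Klra8. This comparison leaves out Klra5 and Klra9, which also carry the ITIM tyrosine codon. It thus does not set all inhibitory against activating members in that sub-cluster. Klra7 was there at 290, 273 and 170 CPM at 4, 12 and 20 months, where monocyte/macrophage-like cells had 46.1, 40.4 and 20.7. Klra1 was at 111, 106 and 63.5 CPM and Klra6 at 60.4, 57.6 and 43.3 CPM, which for Klra6 exceeded its level in NK-like cells in every library. Klra4 was at 39.5, 36.8 and 19.7 CPM and Klra8 at 65.1, 47.7 and 35.9 CPM, beside a background of 39.1, 30.1 and 16.3 and of 57.1, 39.1 and 20.6. The sub-cluster held 907, 1651 and 301 cells, and another, marked by Gzmm and Fcgrt, held 121, 141 and 1853. Since the libraries were split so unevenly between sub-clusters, the values by age may not describe the same kind of cell at each age. The Dapl1- and Ccr7-marked one expressed Cd3e at 417 CPM and Ncr1 at 43.3 CPM (35.1 CPM in monocyte/macrophage-like cells), and was left unnamed because Klrb1c and Txk, both on the NK-like list, were among its leading genes.

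Klra7 was detected in 35.8%, 34.0% and 24.3% of these thinned cells, and Klra1 in 17.0%, 17.3% and 9.30%. In monocyte/macrophage-like cells the shares of Klra7 were 12.9%, 10.8% and 5.78%. Klra1 and Klra7 were found in the same cell 1.71 times as often as the product of their shares (1.52 to 1.92 over all 2859 cells). For Klra7 and Klra8 the ratio over all these cells was 0.935 (0.779 to 1.11).

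In CD8 T-like cells one library stood apart. In the CD8 T-like sub-cluster marked by Rgs16 and Ccl3, Klra7 was at 43.5, 231 and 32.4 CPM at 4, 12 and 20 months, Klra1 at 11.5, 107 and 9.25 CPM, and Klra3 at 24.9, 119 and 27.4 CPM. The 12-month library was far above the others for all 3 genes, and above its background of 40.4, 13 and 22 CPM. Klra4 at 33.5, 32.3 and 19.9 CPM and Klra8 at 51.5, 45.5 and 24.2 CPM did not share that pattern. In the 695 cells of the 12-month library Klra7 was detected in 23% (19.9% to 26.3%), against 11.5% at 4 months and 4.53% at 20 months. There Klra1 and Klra7 were found together in 10.9% of cells, 2.97 times the product of their shares (2.37 to 3.67), and Klra3 and Klra7 in 11.9%, 2.49 times (2.0 to 3.04). Dividing CD8 T-like cells showed the same order, with Klra7 at 86.4, 164 and 47.7 CPM. Since the mice of an age were pooled in 1 library, the number of mice behind these cells is not known.

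**Figure D5:**
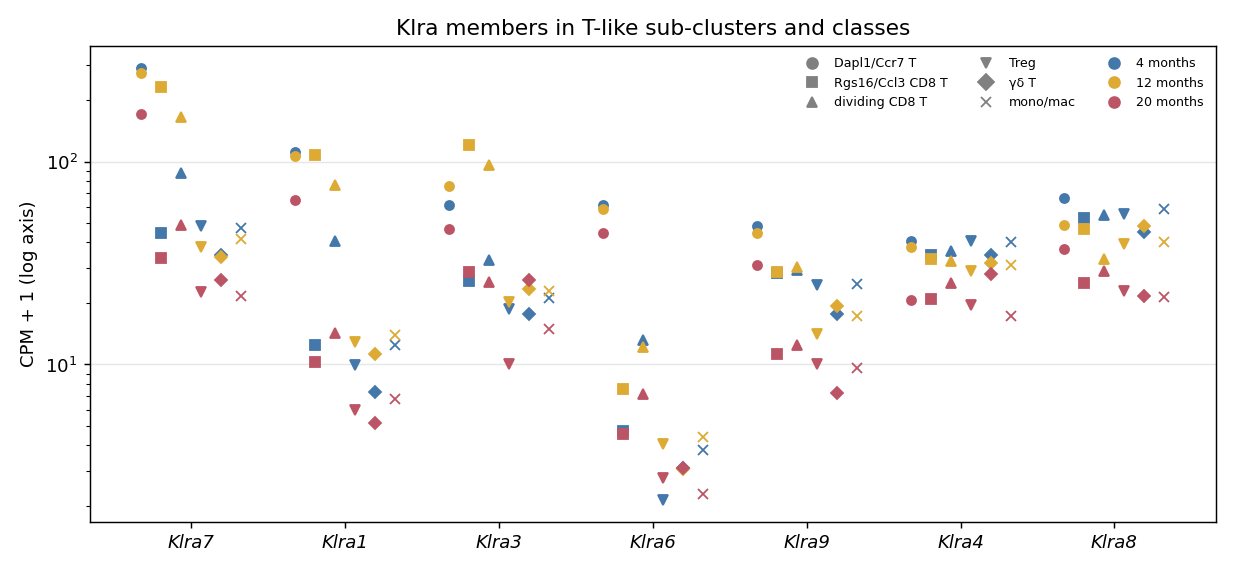
Levels of 7 members, as CPM + 1 on a log axis, in the Dapl1- and Ccr7-marked T-like sub-cluster, 2 CD8 T-like sub-clusters, regulatory and gamma-delta T-like cells and monocyte/macrophage-like cells (symbols), by library (colours). Klra7, Klra1, Klra3 and Klra6 reach above the monocyte/macrophage-like symbols in the Dapl1- and Ccr7-marked cells, and Klra7 does so in dividing CD8 T-like cells. In the Rgs16- and Ccl3-marked cells the 12-month library is highest for Klra7, Klra1 and Klra3. Klra7 and Klra1 do not stand above the monocyte/macrophage-like symbols there at 4 months. Klra4 and Klra8 stay near those symbols.

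Regulatory and gamma-delta T-like cells were near background. In regulatory T-like cells Klra7 was at 47.1, 36.8 and 21.8 CPM and Klra1 at 8.95, 12.0 and 4.94 CPM. In gamma-delta T-like cells, marked by Il17a, Klra7 was at 33.6, 32.8 and 25 CPM. Over all T-like cells the summed Klra members were at 336, 409 and 173 CPM. The first clustering put 1057, 1385 and 1913 cells of the libraries in a cluster marked by Dapl1 and Gzmm. Some T-like sub-clusters came mainly from 1 library, such as 1853 of 2115 cells in the one marked by Gzmm and Fcgrt from 20 months and 1736 of 1782 cells in the one marked by Cbfa2t2 from 12 months. The CD4 T-like class, with 422 cells, had summed Klra members at 488 CPM, but 1050 of the 1548 counts came from 144 cells marked by Cdk8 and Gphn, where they were at 1096 CPM and Ncr1 at 171 CPM. In the CD4 T-like cells marked by Ccl1 and Penk the sum was 225 CPM. A group of 297 T-like cells within the NK-like clusters, with Cd3e at 482 CPM, had Klra7 at 132 CPM and Klra6 at 23.5 CPM, and Klra4 and Klra8 at 32.5 and 43.9 CPM.

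Klra17, known from plasmacytoid cells, was at 114, 191 and 116 CPM in the 62, 57 and 52 plasmacytoid dendritic cell-like cells of the 3 libraries, with an interval of 80.8 to 155 CPM at 4 months and of 149 to 241 CPM at 12 months. All 8 plasmacytoid markers, from which the class was named, were above 20 CPM in each. Among monocyte/macrophage-like cells it was concentrated in the cluster marked by Pf4 and Ccl7. There Klra17 was at 161, 149 and 143 CPM, and in the remaining monocyte/macrophage-like cells at 9.67, 10.9 and 12.1 CPM. In type 2 dendritic cell-like cells it was at 15.7, 15.2 and 12.7 CPM.

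Over the whole monocyte/macrophage-like class Klra17 was at 18.9, 29.5 and 39.3 CPM, 1.06 higher at 20 months on the log2 scale (0.94 to 1.18). The Pf4- and Ccl7-marked cluster made up 5.23%, 10.7% and 17.1% of the class. Within that cluster the log2 difference at 20 months was -0.17 (-0.32 to -0.005), and outside it the difference was 0.33 (0.13 to 0.53). The higher class level went with a larger share of that cluster, which was picked because its Klra17 level was the highest. The part of that share in the class difference was not tested.

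Genes with the most similar profile were named by Pearson's r of log2(CPM + 10) over 31 class-by-library profiles with at least 50 cells, as a description. The profiles share libraries and their background. Ncr1 was closest to Klra4 (r = 0.98), Klra8 (0.98) and Klra9 (0.98). Klrb1c, which encodes NK1.1, was closest to Klra3 (0.94), Gzma to Klra7 (0.94) and Klre1 to Klra1 (0.89). Klra6 came closest to Samd3 (0.86), followed by Klrc2 and Eomes, and Klra5 to Gm16341 (0.90). Klra17 was closest to Pltp (0.95), Blnk (0.95) and P2ry12 (0.95).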

How the data were processed

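Raw count matrices (counts per gene and cell, without normalisation) were deposited by the authors, 1 per library. The submitters' processing notes name STAR 2.7.10a and GRCm38; the mouse strain and whether counts are molecules or reads are not given in the sources used here. All cells had at least 500 counts, 2 cells above 15% mitochondrial counts were left out, and the 6% of cells with the highest Scrublet score per library were removed as likely doublets. Cells were clustered with scanpy 1.11.5 (2000 variable genes without Klra genes, 30 components, Leiden resolution 1.0) and named from marker lists. The rules that turn marker levels into names, such as that a marker also held by a T list does not count against a T-like name, were set after clusters had been seen. NK-like clusters were subclustered and 297 T-like cells set apart.

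Counts were summed per class and library and given as CPM with exact Poisson intervals, ratios with exact conditional binomial intervals and shares with Clopper-Pearson intervals. With 1 library per age no test between ages was possible. Cells were thinned to 3000 counts by drawing without replacement. Named genes were the 9 members, 4 lists (Ly49 signalling, ligands, transcription factors, NK maturation) and the 3 genes most alike each member's profile; a difference was counted at 1.5-fold among genes with at least 20 CPM. The members and lists were chosen with earlier results of these data known; ILC1 and other markers come from the marker lists. Scripts were tested on simulated data. Alternatives were no doublet removal, other clusterings and depths, NK-like cells without T cell receptor transcripts, another scaling and background subtraction; a stricter detection, the 3 largest NK-like sub-clusters and, for cells with no member detected, the 20 CPM minimum in both groups were added after seeing the data. The last replaced a minimum on the mean of both groups, under which 4 of 5 ILC1 markers were higher, among them Il7r and Rora, which passed through the cells with none.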

Additional observations from a re-analysis of the deposited data

Results flagged for a closer look

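For Klra7 and Klra3 the difference between ages had opposite signs in NK-like and T-like cells. Klra7 at 12 months against 4 months was 0.51 on the log2 scale in T-like cells and -0.17 in NK-like cells. Klra3 at 20 months against 4 months was -0.42 in T-like cells and 0.12 in NK-like cells. The difference between the cell types was not tested, since each age had 1 library. T-like cells pool sub-clusters whose sizes differed between libraries. The Dapl1- and Ccr7-marked one held 907 of 5004, 1651 of 6580 and 301 of 6166 T-like cells at 4, 12 and 20 months. Within it Klra7 was lower at 12 than at 4 months, whereas in the Rgs16- and Ccl3-marked and the dividing CD8 T-like cells it was higher. The part of these sizes in the T-like values was not tested. With the monocyte/macrophage-like level of each library subtracted, the T-like values were 0.89 for Klra7 and -0.24 for Klra3. For Klra3 that background was 20.3 CPM at 4 months and 13.9 CPM at 20 months, beside 33.2 and 24.8 CPM in T-like cells.

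The 5 Klra genes outside the 9 members were counted above the limit that a count of 0 allows. Klra13-ps, annotated as a transcribed pseudogene, was at 707 CPM in NK-like cells, at 701, 713 and 707 CPM over the 3 libraries, which is above the level of Klra7 pooled (692 CPM), with which it shares some 3′ sequence. Klra13-ps was also at 173 CPM in the Dapl1- and Ccr7-marked T-like cells and at 170 CPM in those marked by Gzmm and Fcgrt, where Klra7 was at 77.1 CPM. Klra14-ps was at 180 CPM in NK-like cells, and Klra11-ps and Klra10 were at 9.13 and 5.67 CPM. Klra2, which lies apart from the other Klra genes on chromosome 6, was at 346 CPM in monocyte/macrophage-like cells (374, 322 and 340 CPM) and at 25.5, 24.1 and 25.5 CPM in NK-like cells.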

How the results depend on the processing

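The 1 library per age is the main limit: no value between ages has a replicate check, intervals reflect counting only, and pooled mice cannot be separated. No paired analysis was possible because each age has 1 library. Detection depends on depth. The 8 members named were highest in NK-like cells under all 6 alternatives run, among classes that left out the T-like cells within NK-like clusters. The share of NK-like cells with at least 2 members was 61.7%, 59.0% and 54.5% at 4, 12 and 20 months after thinning to 1000 counts, 92.7%, 91.1% and 87.1% without thinning, and 68.9%, 63.7% and 60.2% when 2 counts of each member were required, in the same order of ages; it was 82.7% at 4 months at Leiden resolution 2.0 and 71.0% at 20 months in cells with no count of Cd3e, Cd3d, Cd3g or Trac. That last choice kept 198, 33 and 62 cells; it put the summed family level at -0.41 at 12 months and -0.23 at 20 months, and reversed Klra1 at 20 months (0.67), Klra3 at 12 months (-0.81) and 20 months (-0.26) and Klra7 at 20 months (0.062); the cause was not tested. At 20 months the family was at -0.18 with median-ratio scaling and -0.22 with background subtracted. Of 210 values of single members under alternatives, 159 stayed within the interval of the value reported, 47 moved out of it and 4 reversed.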
